A study of Mus musculus with 2 samples.

Results

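The distal microRNA array of the imprinted Dlk1-Dio3 domain was examined in mouse calf muscle, as 38 of the 2202 microRNA genes in the count tables. Members were chosen by position, as all GENCODE M21 microRNA genes on the forward strand of chromosome 12 from Mir379 to Mir410 (mm10). Mir3072 lies downstream of Mir410, inside the search window, and was left out because the array was taken to end at Mir410. The members spanned 34736 bases, from 109709060 at the start of Mir379 (ENSMUSG00000065498.4) to 109743795 at the end of Mir410 (ENSMUSG00000065497.1). Both libraries came from gastrocnemius of B6CASTF1/J females, aged 25 days and without a stated treatment. They were small RNA libraries of total RNA with a size range under 30, labelled as biological replicates 1 and 2 of 1 group. The females carry separate numbers but 1 donor identifier, so an SD here measures the spread between these libraries, which may be technical. A p-value here covers counting error only and measures no such spread. B6CASTF1/J mice are hybrids of the C57BL/6J and CAST/EiJ strains, and the tables do not separate the parental alleles.

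Dlk1-Dio3 is an imprinted domain in which the non-coding RNAs are made from the maternally inherited chromosome and the protein-coding genes Dlk1, Rtl1 and Dio3 from the paternal one. Each microRNA is cut as a hairpin from long transcripts of the maternal chromosome, and a mature strand of the hairpin guides repression of messenger RNAs that pair with its seed, bases 2 to 8. The array is known for high levels in brain, embryo and placenta and for a part in metabolic adaptation at birth, and the muscle transcription factor family Mef2 is known to act on it. Counts were per hairpin, on the strand of the gene, so the arms of a hairpin could not be told apart.

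Listed mature sequences of the 10 most abundant members are shown first, to identify the microRNAs whose levels follow, with strands of Mir1193, Mir376b and Mir300 for comparison with those they resemble. RefSeq (GRCm38.p6) listed 69 mature sequences for 37 of the 38 genes, from 19 to 25 bases long, and levels were therefore compared between genes without division by length. Both arms were listed for 32 genes and 1 arm for 5, among them Mir487b and Mir376c, and Gm27379 had no entry. Capitals mark the seed, and all sequences run 5′ to 3′.
miR-411-5p: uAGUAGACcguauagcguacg
miR-411-3p: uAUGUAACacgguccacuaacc
miR-379-5p: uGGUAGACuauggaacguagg
miR-379-3p: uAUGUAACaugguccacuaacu
miR-1193-5p: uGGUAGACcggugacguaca
miR-376c-5p: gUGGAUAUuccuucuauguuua
miR-376b-5p: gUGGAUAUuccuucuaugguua
miR-381-3p: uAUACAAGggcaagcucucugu
miR-300-3p: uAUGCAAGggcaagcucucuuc
miR-487b-5p: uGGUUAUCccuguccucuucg
miR-541-5p: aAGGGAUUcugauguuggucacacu
miR-299a-5p: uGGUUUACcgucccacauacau
miR-382-5p: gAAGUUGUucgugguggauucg
miR-369-3p: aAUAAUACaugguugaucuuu
miR-154-5p: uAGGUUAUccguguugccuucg

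Mir379 and Mir411 share a seed on their 3′ arms, and Mir379 shares its 5′ seed with Mir1193. Counted from the 5′ end, miR-411-5p differs from miR-379-5p by G2A within the seed, and the 2 strands match at 14 of 21 bases. Among the listed strands, seeds were shared within the array by 6 pairs from 11 genes, and arms without a listed sequence were not compared. No listed mature sequence of a member was found whole in another microRNA gene outside its own locus.

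The array held 4.56% of all microRNA-gene counts in replicate 1 (exact binomial 95% interval 4.52 to 4.59) and 5.40% in replicate 2 (5.38 to 5.41), a mean of 4.98% ± 0.593 (SD, n = 2). These shares rest on 71682 of 1573213 counts and on 292938 of 5429127, and intervals cover counting error only. The unit of level is CPM, the count per 1000000 gene-strand counts of a library. Of the 38 members, 32 were detected, meaning that each library reached at least 2 CPM, against 14.7% of all microRNA genes. The median of the detected members was 281 CPM, and that of all 324 detected genes was 130 CPM. Among the 50 microRNA genes most abundant by these counts, 7 were array members, and 12 were among the 100 most abundant. Reads that aligned to several places, 68.6% and 69.7% of the reads, were assigned to no gene. Genes with copies elsewhere can therefore be counted too low, and how far this moves the shares and ranks was not tested. Of all 324 detected genes, members made up 9.88%, so the count among the 100 most abundant was near that share.

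Mir411 (ENSMUSG00000065477.3, from 109710175 to 109710256) was the most abundant member in both libraries. Its level was 17466 CPM in the first library and 20804 CPM in the other, a mean of 19135 ± 2361 CPM (SD, n = 2). By these counts it stood at rank 13 of all microRNA genes. On its own it supplied 38.4% of the array's counts. Mir379, a microRNA induced by stress of the endoplasmic reticulum in kidney, had 4838 and 5326 CPM, a mean of 5082 ± 345 CPM. Mir487b (ENSMUSG00000076219.1, 109727333 to 109727414) had 4062 and 5569 CPM, a mean of 4816 ± 1066 CPM. The gap between the means of Mir379 and Mir487b was smaller than the replicate SD of either gene.

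The next levels belonged to Mir541, Mir299a and Mir382. Mir541 (ENSMUSG00000076052.1) had 3627 and 3619 CPM. Mir299a (ENSMUSG00000106653.1) had 2951 and 3702 CPM, so its mean of 3327 ± 532 CPM differed from that of Mir541 by less than its spread. Mir382 (ENSMUSG00000065428.4) had 2512 and 3254 CPM. The ranges of Mir299a and Mir382 overlapped, while the CPM of Mir541, scaled by library totals, differed little between the libraries.

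Mir376c had 2004 and 2085 CPM. Mir369, whose 3p strand is known for acting on the AU-rich element of tumour necrosis factor RNA, had 1243 and 1502 CPM. Mir154 had 1018 and 1157 CPM, Mir381 had 666 and 1310 CPM, and Mir409 followed at a mean of 986 ± 95.8 CPM. The means of Mir381 and Mir409 were closer together than their spread, and Mir381 lay below Mir409 in replicate 1 and above it in replicate 2. A mean of at least 1000 CPM was reached by 9 members, of at least 100 CPM by 25 and of at least 50 CPM by 31. The 5 highest members, Mir411, Mir379, Mir487b, Mir541 and Mir299a, held 72.3% ± 0.014 (SD, n = 2) of the array's counts.

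**Figure D1:**
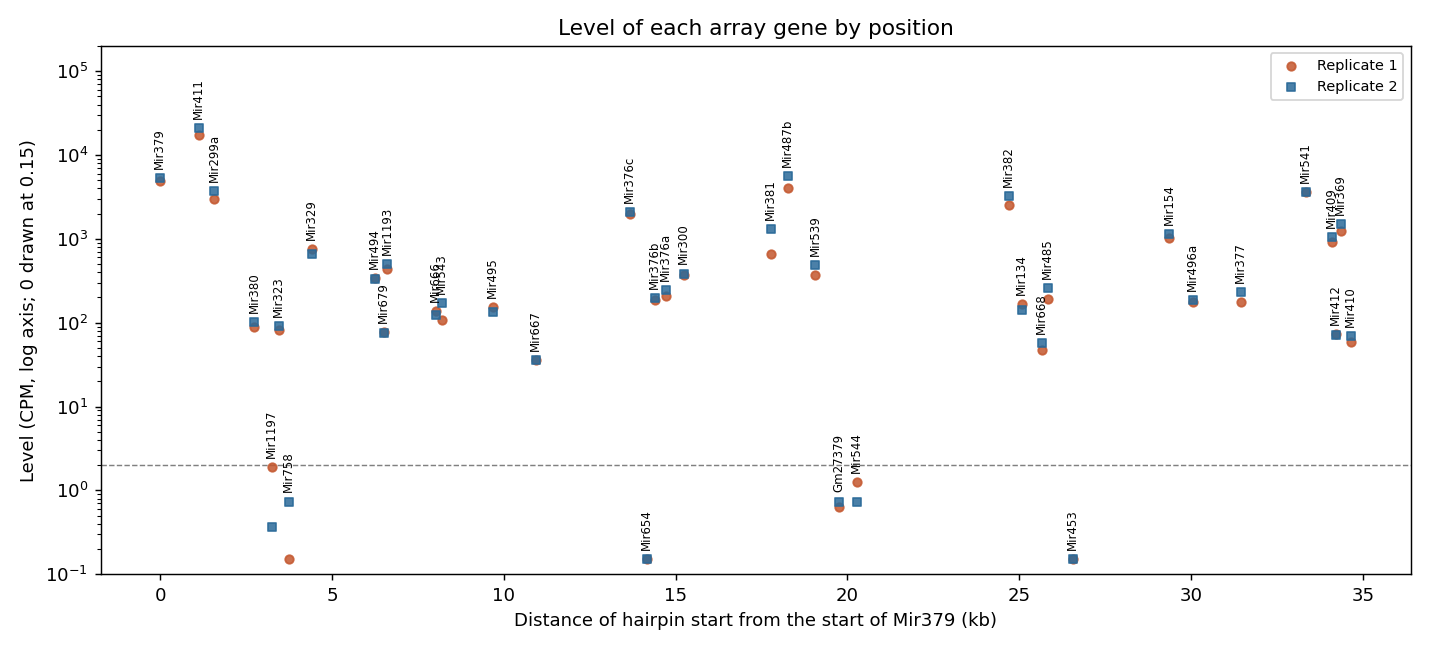
Level of each of the 38 array genes (CPM, log axis) against the distance of its hairpin start from the start of Mir379 (kb), with 1 point per library and a dashed line at 2 CPM. High and low genes are interspersed along the array, Mir411 near the left end reaches 20804 CPM in replicate 2, and 6 genes lie at or under the line.

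Level showed little relation to position along the array. Spearman's rho between the mean level and the start coordinate was -0.042 over the 38 members, which share libraries and a locus. Counts were nonetheless concentrated at the upstream end. Mir379, Mir411 and Mir299a, the first 3 genes, held 55.4% ± 0.0958 (SD, n = 2) of the array's counts, while the next 10 genes together held 4.14% ± 0.454. Mir379 and Mir411 lie 1049 bases apart.

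Counted in order, the first 13 genes (Mir379 to Mir543) held 59.5% ± 0.55 of the counts, the next 13 (Mir495 to Mir382) 24.3% ± 1.55 and the last 12 (Mir134 to Mir410) 16.2% ± 0.997. Medians of single genes had another order, at 141 CPM, 228 CPM and 193 CPM. The excess of the upstream block in counts was therefore carried by its first 3 genes and not by its typical gene. Without Mir411, a setting chosen after the data were seen, the array held 3.06% of the microRNA-gene counts.

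**Figure D2:**
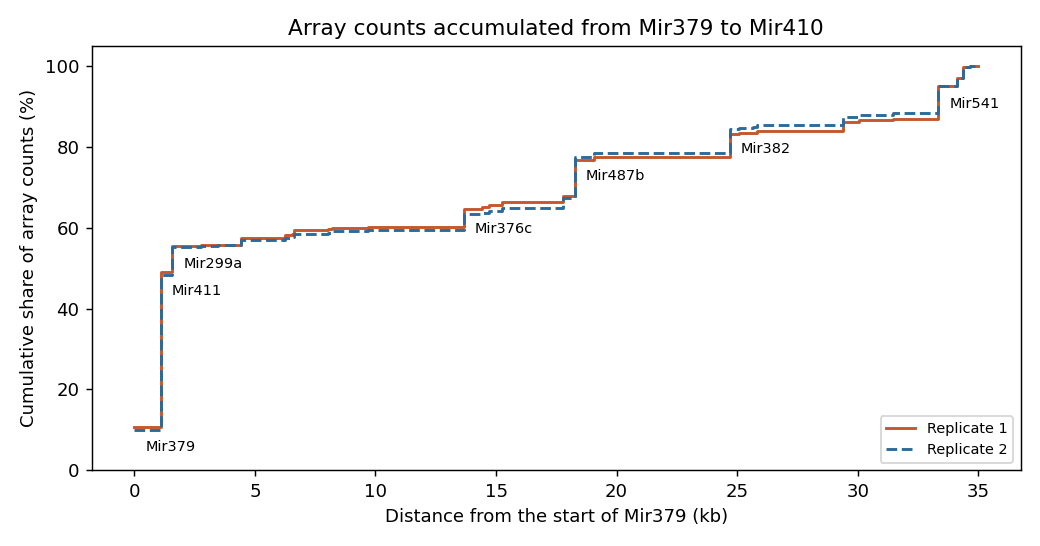
Cumulative share of the array's counts (%) from Mir379 to Mir410 against distance from the start of Mir379 (kb), with 1 line per library. After 3 genes the lines have reached 55.4% on average, and later steps stand at Mir376c, Mir487b, Mir382 and Mir541.

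Neighbouring genes were no closer in level than other members. Detected neighbours differed by a median of 4.79-fold over 31 pairs, and all 496 pairs of detected members by a median of 4.82-fold. A difference of at least 2-fold separated 80.6% of the neighbour pairs and 77.2% of all pairs. At least 10-fold separated 9 neighbour pairs, with the widest step between Mir667, at 35.6 and 35.9 CPM, and Mir376c, 57.2-fold higher. Spearman's rho between a detected gene and the next was 0.09. Gaps between hairpins ran from 20 bases, between Mir679 and Mir1193, to 4368 bases, between Mir544 and Mir382.

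The host transcript Mirg, annotated on chromosome 12 from 109729764 to 109749460, begins within that widest gap, after Mir544. Of the members, 25 lay upstream of the annotated Mirg gene, 5 in its introns and 8 overlapped its exons. The upstream genes held 78.0% ± 0.632 of the counts. Detected genes numbered 20 of 25 upstream and 12 of 13 within Mirg, and Mir453 was the undetected gene within it. The median level was 193 CPM upstream of Mirg and 203 CPM within it, so the typical gene had a like level on either side of the annotated start.

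Members with shared seeds differed widely in level. Mir379 and Mir411, which share the 3p seed AUGUAAC, were 3.77-fold apart. Mir1193, with the 5p seed of Mir379, had 437 and 499 CPM, a mean 10.9-fold below that of Mir379. Mir376b had 188 and 198 CPM against 2004 and 2085 CPM for Mir376c, a 10.6-fold difference in mean level. Their hairpins were the most alike of the array, with 86.6% of the shorter identical in an alignment that leaves end gaps unpenalised. They lie 654 bases apart.

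The Mir376 hairpins also shared the longest stretch of sequence, 31 bases. The listed 5p strands of Mir376b and Mir376c are identical over their first 18 bases and differ by G19U alone, from miR-376b to miR-376c. Reads that aligned to several places were assigned to no gene, and their share of the reads was 68.6% for the first library and 69.7% for the second. Reads of Mir376b and Mir376c could be among them, by an amount that these library-wide shares do not give. The same holds for Mir411 and Mir758, which share 21 bases, and for Mir487b, which shares 20 bases with Mir376b. No listed mature strand of these genes lay whole within another gene away from its locus. How many array reads were set aside in this way was not tested. Mir376a, a microRNA known to be edited from A to I in brain, had 210 and 245 CPM.

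The pair Mir494 and Mir410 shared the seed GGUUGUC. Mir494, known for acting on mitochondrial genes in muscle, had 339 and 332 CPM, and Mir410 had 59.1 and 68.7 CPM. Mir381 and Mir300 carry near-identical 3p strands, which match at 19 of 22 bases but differ within the seed by A4G, from miR-381 to miR-300. Mir300 had 371 and 386 CPM, nearly level between libraries, whereas Mir381 was higher in replicate 2. Their hairpins were 78.7% identical and 2430 bases apart.

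Detection in the array was nearly all or nothing. The lowest detected member, Mir667, averaged 35.8 CPM and the highest undetected one, Mir1197, 1.14 CPM, a 31.4-fold gap that held no other member. Over the whole table these levels bounded 172 genes, or 25.9% of those with a count. Mir654 and Mir453 had no count in either library, which allows up to 1.91 CPM in replicate 1 and 0.553 CPM in replicate 2. Mir1197 had 3 and 2 counts, Mir544 had 2 and 4, Gm27379 had 1 and 4, and Mir758 had 0 and 4. Gm27379 and Mir544 are adjacent, and the other undetected genes each have detected genes on both sides. Mir758, at 0 and 0.737 CPM, lies between Mir323, at 82.6 and 91.0 CPM, and Mir329, at 758 and 664 CPM.

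**Figure D3:**
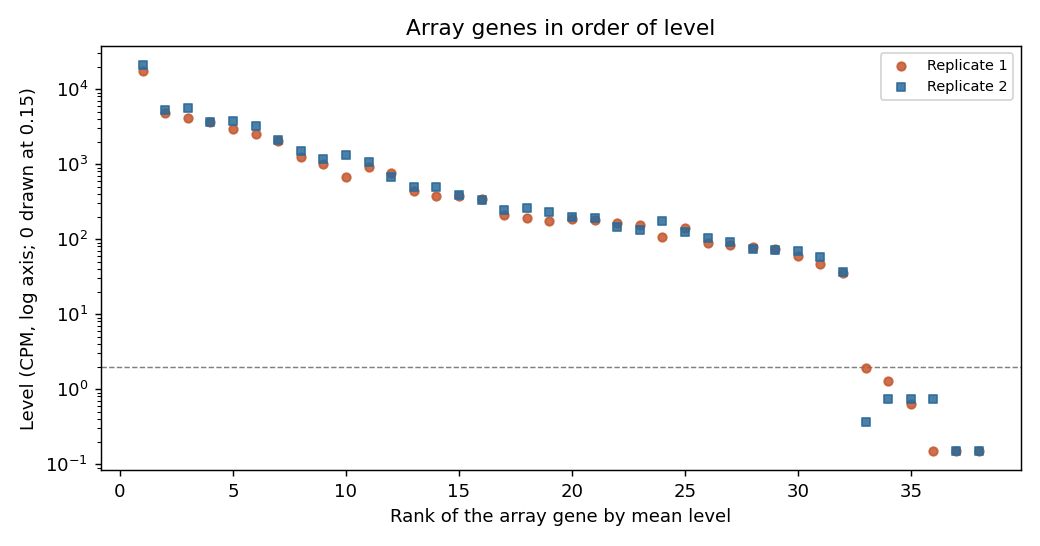
Level of the 38 array genes (CPM, log axis) in order of mean level, with 1 point per library and a dashed line at 2 CPM. The first 32 genes descend to 35.8 CPM and the last 6 lie at or below 1.91 CPM in both libraries.

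Some hairpins of the array shared short stretches of sequence. Members were chosen by position, but the letters UACUUG and AGUAUC were picked after these hairpins were read. That choice favoured a higher share in members than in other genes, so the comparison is descriptive. Both motifs were searched on the gene strand of every annotated hairpin and on the other strand. UACUUG occurred in 10 of 38 members and in 1.89% of the other 2164 microRNA genes, and AGUAUC in 7 members and in 1.57% of the others. On the other strand UACUUG was in 0 members and AGUAUC in 1, Mir494, where it overlaps UACUUG. Both motifs stood together in Mir411, Mir494, Mir487b and Mir369, and in 1 gene elsewhere. The annotated hairpins differ in how much flank they include, from 61 bases in Mir380 to 123 in Gm27379, so a missing match says only that the letters are not in that window. In these RefSeq hairpins, capitals mark the motifs.
Mir411 (chr12:109710175-109710256, forward strand): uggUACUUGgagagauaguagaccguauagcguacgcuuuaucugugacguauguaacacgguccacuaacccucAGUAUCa
Mir494 (chr12:109715318-109715402, forward strand): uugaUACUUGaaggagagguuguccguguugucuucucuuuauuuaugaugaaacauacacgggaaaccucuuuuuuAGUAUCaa
Mir369 (chr12:109743418-109743496, forward strand): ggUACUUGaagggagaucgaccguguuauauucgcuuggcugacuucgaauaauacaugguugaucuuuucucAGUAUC

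The 4 genes with both motifs ranked 1 (Mir411), 3 (Mir487b), 8 (Mir369) and 16 (Mir494) among the members by mean level. The median identity of a hairpin to its closest member was 76.9%, the highest of its alignments to all other members, and it was not compared with hairpins outside the array. The lowest such values were 61.7% for Mir666 and 63.5% for Mir544. The closest member was the adjacent gene for 9 of 38. Mir494 was most like Mir154, at 81.8% identity and 23030 bases away, and their mean levels were 335 and 1087 CPM.

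Strand mattered for 5 members. Mir299a, Mir380, Mir376a, Mir539 and Mir409 lie opposite annotated microRNA genes of the reverse strand, Mir299b, Gm25750, Gm25252, Gm44322 and Gm24321. When strand was ignored these 5 were listed at 0, so their levels, 10.2% ± 0.282 of the array's counts, rest on the strand-specific counts. Mir539 had 374 and 492 CPM on the gene strand, and Mir380 had 89.6 and 103 CPM. No read was counted on the strand opposite any member in replicate 1.

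Among the less abundant members are microRNAs with known roles at synapses and in muscle. Mir134, which limits dendritic spine size through Limk1, had 165 and 143 CPM, and Mir485, which acts on synaptic proteins, had 192 and 262 CPM. Mir329, which neuronal activity raises through Mef2 together with Mir134, had 758 and 664 CPM. Further detected members were Mir323, Mir679, Mir666, Mir495, Mir496a, Mir377, Mir668 and Mir412, with means from 52.0 CPM for Mir668 to 203 CPM for Mir377.

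The libraries ranked the array alike. Spearman's rho between them was 0.993 over the 32 detected members, 15 of 38 members held the same rank in both, and no detected member moved by more than 3 ranks. In a two-sided exact binomial test on reads, weighted by the library totals and with Benjamini-Hochberg adjustment over all 364 genes with at least 10 counts, 15 of 32 members tested were higher in replicate 2. Over all genes tested, 45.3% were called in either direction and 15.1% in this one. Mir329 alone was higher in replicate 1, where 30.2% of all genes were called. This test compares these 2 libraries, not conditions, and takes counting as the only error.

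The size of these differences was small for most members. With a pseudocount of 1 CPM, log2 ratios (replicate 2 over replicate 1) had a median of 0.19 over the detected members (middle 50% from 0.01 to 0.29) and -0.13 over all detected genes (-0.42 to 0.11). Of the 32 members 24 had a ratio above 0 and 28 lay above the median of all detected genes. The common biological coefficient of variation from edgeR, 24.5%, amounts to an SD of 0.50 in a gene's log2 ratio. On library totals only Mir381 and Mir543 among the called members lay beyond it. The SD was estimated after edgeR's TMM scaling, which raises every log2 ratio by 0.18. With that shift Mir487b, at 0.46 on library totals, and other members would also lie beyond the SD. Over all genes tested on library totals, 3.57% were called higher in replicate 2 beyond that SD and 16.5% higher in replicate 1.

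Mir381 went from 666 CPM in replicate 1 to 1310 CPM in replicate 2, a log2 ratio of 0.97 (exact 95% interval 0.88 to 1.07; adjusted p = 1.46e-107, exact binomial test). Mir543 had 108 and 174 CPM, with a log2 ratio of 0.68 (0.45 to 0.93; adjusted p = 1.17e-08, exact binomial test). The third in size, Mir487b, had a log2 ratio of 0.46 (0.42 to 0.49). In the other direction Mir329 had a log2 ratio of -0.19 (-0.29 to -0.10; adjusted p = 2.98e-04, exact binomial test). These intervals hold counting error only, and on library totals the ratios of Mir487b and Mir329 were within the SD of a single gene.

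Ratios differed between close neighbours and between like sequences. Mir543 and Mir495, adjacent genes whose hairpins were 84.1% identical, had log2 ratios of 0.68 and -0.22, the latter not past the test. Mir381 lay at 0.97 and Mir300 at 0.06. Mir411 had a log2 ratio of 0.25. The ratio of Mir541, at 3627 and 3619 CPM, had an interval for counting error of -0.05 to 0.04, which held 0 on library totals. Under the TMM and DESeq2 scalings given below, that interval lies above 0.

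**Figure D4:**
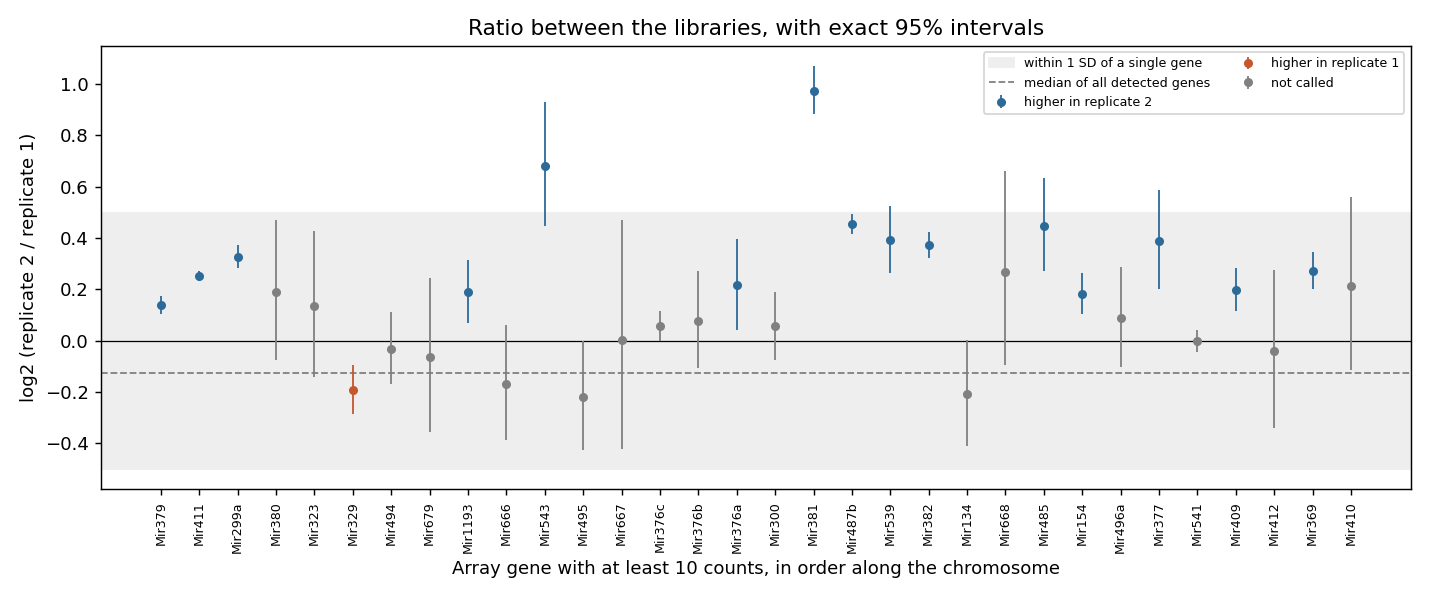
Log2 ratio of replicate 2 over replicate 1 for the 32 array genes with at least 10 counts, in chromosome order, with exact 95% intervals for counting error. The grey band spans 1 SD of a single gene (0.50), and on library totals Mir381 at 0.97 and Mir543 at 0.68 stand above it.

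The count of calls moved with the scaling. With DESeq2 size factors all log2 ratios rose by 0.20 and 25 of 32 members were called higher in replicate 2, the 15 above among them. Of all genes 47.3% were then called, 29.4% as higher in replicate 2 and 17.9% as higher in replicate 1. Under that scaling 0 members were higher in replicate 1 by the exact binomial test, 0 also at an unadjusted p under 0.05. With edgeR's TMM scaling, which raised the log2 ratios by 0.18, 23 members were higher in replicate 2 and 0 in replicate 1, 0 also unadjusted. Of all genes 47.8% were called under TMM, 28.6% as higher in replicate 2 and 19.2% as higher in replicate 1. Of these scalings, library totals alone gave a call for Mir329.

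Marker genes of several cell types differed between the libraries as well. The 11 listed striated muscle genes, all with a count, summed to 36394 CPM in replicate 1 and 75015 CPM in replicate 2. Almost all of this came from Mir206, a muscle-specific microRNA. Mir1a-1 had only 14.0 and 15.8 CPM. Of the Mir133 genes, Mir133a-1 had 12.1 and 22.8 CPM, Mir133a-2 7.63 and 2.03 CPM, and Mir133b 28.0 and 26.9 CPM. Whether reads that aligned to several places were lost from these genes was not tested. By the exact binomial test 5 of 10 tested muscle genes were higher in replicate 2, among them Mir208b at 219 and 994 CPM, and 3 were higher in replicate 1, namely Mir1a-2 at 378 and 318 CPM, Mir208a and Mir133a-2. The 19 listed neural genes, of which 8 were detected, summed to 3281 and 2718 CPM, with Mir124a-1, Mir124a-2, Mir124a-3 and Mir9-2 at 0 in both. Neural genes went both ways: Mir338, at 1581 and 749 CPM, and Mir137 were higher in replicate 1, while Mir128-1, at 1381 and 1581 CPM, and Mir128-2 were higher in replicate 2. The 7 smooth muscle and fibroblast genes summed to 132936 and 63422 CPM, of which Mir143 made up 127590 and 59272 CPM, and Mir214 of the same list was higher in replicate 2, at 1674 and 2355 CPM. The 2 erythroid genes summed to 2703 and 587 CPM, and the 10 epithelial genes to 518 and 255 CPM. The 2 endothelial genes summed to 93329 and 103367 CPM, almost all from Mir126a, and the 7 immune genes to 3525 and 3075 CPM. Immune genes went both ways. Mir142, at 839 and 336 CPM, Mir155 and Mir223 were higher in replicate 1. Mir146, at 395 and 563 CPM, and Mir342 were higher in replicate 2. The part of these differences in the array's ratio was not tested, and fewer cells of a type and less RNA per cell cannot be told apart in whole tissue.

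The proximal microRNA genes of the same imprinted domain are the other source of its microRNAs, among them Mir127 and the genes antisense to Rtl1. Of 19 listed genes 17 matched and 13 were detected, and they held 3.85% ± 0.358 (SD, n = 2) of the microRNA-gene counts. Mir127 supplied most of it, at 24431 and 29005 CPM. The distal array held 1.27 times the proximal counts in replicate 1 and 1.32 times in replicate 2. That ratio rested on Mir411: without it the distal array held 0.795 times the proximal counts. Per detected gene, the proximal list had a median of 444 CPM and the distal array 281 CPM.

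Both groups had higher sums in replicate 2. The summed proximal counts had a log2 ratio of 0.19 and the summed array counts 0.24. By the exact binomial test 5 of 15 proximal genes tested were higher in replicate 2, against 15.1% of all genes tested. Mir434 alone was higher in replicate 1, against 30.2% of all genes tested. Mir127 had a log2 ratio of 0.25, as did Mir411.

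**Figure D5:**
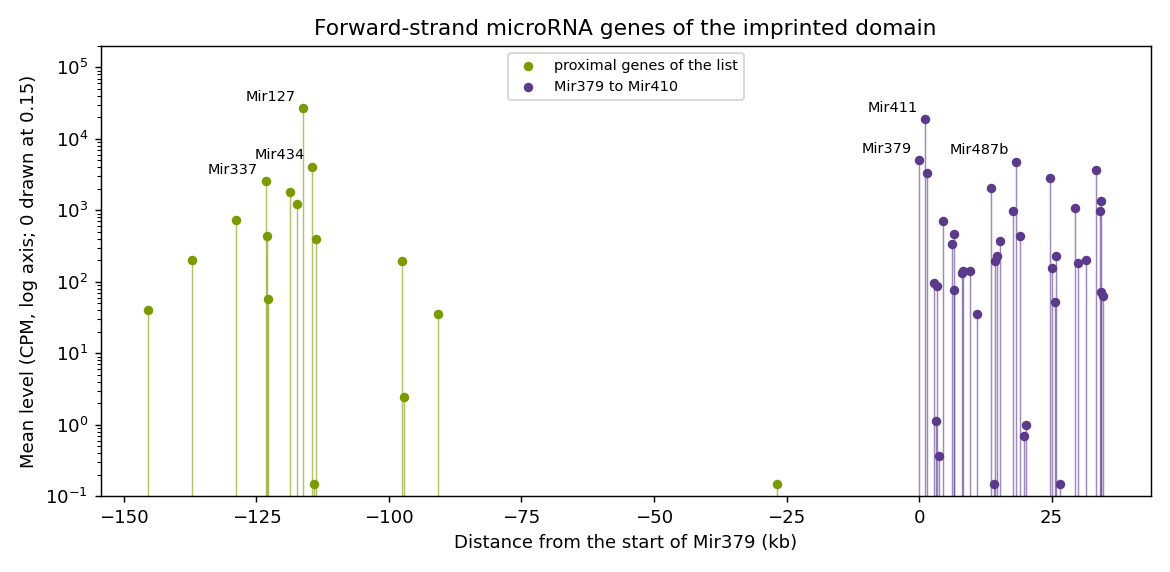
Mean level (CPM, log axis) of forward-strand microRNA genes of the proximal list and of the Mir379 to Mir410 array, against distance from the start of Mir379 (kb). Each group has 1 gene far above its other genes, Mir127 and Mir411, and Mir882, the list's gene closest to the array, has no count. Genes without counts are drawn at the foot of the axis.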

How the data were processed

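Small RNA libraries of gastrocnemius were analysed, 2 in 1 group. The authors deposited raw counts per microRNA gene, as 3 count columns without a header (either strand, gene strand and opposite strand, from the values), with 4 tally rows that stayed out of library totals. Coordinates are mm10, per the labels, and gene models GENCODE M21, per the deposited readme files. Which aligner and counter made the tables is not given in the sources used here. Gene-strand counts were scaled to CPM over all gene rows. All 2202 identifiers matched GENCODE M21.

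Levels are means with SDs; shares carry exact (Clopper-Pearson) 95% intervals. Library ratios of single genes used an offset of 0.5 counts, and those with 10 or more counts over both libraries entered a two-sided exact binomial test. The test was run on simulated counts that held counting error only, so that check does not cover spread between libraries. The adjusted p threshold was 0.05. A count of 0 was taken to allow 3 counts. Reads carried no stated molecular identifiers, so intervals cover counting error only. Scaling factors and dispersion came from edgeR 4.0.16 and DESeq2 1.42.0 in R 4.3.3. Hairpins were compared by global alignment with unpenalised end gaps in biopython 1.88, and folding energies came from ViennaRNA 2.7.2. Other steps used Python 3.11.15, matplotlib 3.10.9, scipy 1.17.1, pandas 2.3.3 and numpy 2.4.6.

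All members were named. Full values were given for the 10 highest, for the 3 largest called ratios in each direction, and for genes sharing a seed with these 10. The members and gene lists were chosen with earlier results of these data known. Alternatives covered strand, scaling, detection minimum, pseudocount, denominator, members and, where a value remained, each library left out. Multi-mapping reads, a tally row, were 68.6% and 69.7% of reads. With 1 group no conditions were compared. Of the proximal list, 2 of 19 symbols had no match.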

Additional observations from a re-analysis of the deposited data

Results flagged for a closer look

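In replicate 2, 5 reads were counted on the strand opposite Mir299a, where Mir299b is annotated, which is above the 3 counts that a count of 0 allows. Replicate 1 had none there, but it is the shallower library, at 1573213 against 5429127 gene-strand counts, so no difference between the libraries is shown. Mir299a itself had 4642 and 20101 counts.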

How the results depend on the processing

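With counts taken without regard to strand, the array held 5.85% of microRNA-gene counts, its 5 highest genes 79.5% of the array, the distal to proximal ratio was 1.26, the median log2 ratio 0.17 and the rank correlation of level with position 0.015. TMM scaling gave 23 members higher in replicate 2, 0 in replicate 1 and a median of 0.36, and with DESeq2 size factors 25 and 0, with a median of 0.39. When calls on library totals also had to lie beyond the SD of a single gene, 2 were higher in replicate 2 and 0 in replicate 1. Over all genes tested the shares were 3.57% and 16.5%. The rank correlation of level with position was -0.098 over detected genes, -0.027 over genes with listed mature sequences unique to their locus (which left out Gm27379 alone) and -0.0429 to -0.0424 with either replicate left out. Over all reads the array held 1.09%. Of the settings chosen after the data were seen, leaving out Mir411 gave a share of 3.06%, 64.4% in the 5 highest genes, a ratio to the proximal genes of 0.795 and a rank correlation of 0.037. Leaving Mir143 and Mir206 out of the table gave 5.83%, a median of 0.13 and 4 members higher in replicate 1 (Mir329, Mir495, Mir134 and Mir541), and adding Mir3072 gave a rank correlation of -0.089. The cause was not tested, except that scaling and denominators act by construction. The remaining 29 values, with the 13 members above among them, moved by less than their spread or, for counts, by less than 1.5 times. Calls between the libraries could not be made with either left out. No paired analysis was possible because the study has 1 group. Depth limits the 6 undetected members and the low detected ones, such as Mir667, whose log2 interval ran from -0.42 to 0.47.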

Other observations

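Folding and base composition were described without a test. The lowest folding energy per base that RNAfold predicts was weaker in all 6 undetected members than the median of the 32 detected ones, -0.35 against -0.42 kcal/mol per base in the medians. Over the detected members the more abundant ones tended to weaker folding, with a Spearman's rho between level and folding energy per base of 0.37 (n = 32), and over all members rho was -0.016 (n = 38). Annotated hairpin length differs between genes and enters this value. Over the detected members Spearman's rho between level and hairpin GC content was -0.38 (n = 32), and over all detected microRNA genes it was -0.063 (n = 324). Points of both share the libraries. Median hairpin GC content was 42.4% in the detected members and 50% in all detected genes.

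Mir3072, downstream of Mir410, had 8.90 and 13.6 CPM, on 14 and 74 counts. It lay in the range between the detected and the undetected members of the array, which no member occupied.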
